A study of Homo sapiens with 3 samples.

Results

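The 79 genes described here are low-expressed genes whose normalized counts were at least 2-fold higher than control in both treated Jurkat libraries. They were found among the 17329 gene rows of the table by a fixed rule. The mean over the 3 libraries had to be at least 20 and under 50, and each treated library had to reach a log2((value + 1)/(control + 1)) of at least 1. CD28 and genes named as antisense or LINC RNAs were left out. Jurkat is an established human T-lineage leukaemia cell line. For 48 hours cells were kept in plain growth medium (control) or with sodium oxamate at 50 mM (oxamate). Other cells received, for the same time, the same oxamate dose together with L-sodium lactate at 10 mM (oxamate+lactate). All 3 conditions had serum in the medium, RNA came from equal numbers of cells, and 1 polyadenylated RNA library was sequenced per condition. The series asked how lactylation of histone H3, a mark made from lactate, relates to transcription, and the values here measure RNA and not the mark.

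Oxamate is a structural analogue of pyruvate that inhibits lactate dehydrogenase, the enzyme that turns pyruvate into lactate. Added lactate can replace the product that the inhibited enzyme no longer makes. Genes near the detection limit of an RNA library include those of other lineages, such as neurons, muscle or epithelium, whose transcripts are scarce in lymphoid cells. They also include intergenic and overlapping transcripts that have no established function.

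The rule used all 3 libraries, so the values below describe the members and test nothing. With 1 library per condition there is no replicate check, no p-value and no standard error. Both ratios share the control library and are not independent. The labels do not say how many cultures stand behind a library. In bulk RNA, fewer cells that express a gene and less RNA per cell cannot be told apart. Summed over all genes, the normalized counts came to between 8171633 and 8821115 per library. How many reads lie behind a value is unknown, and no counting interval could be attached to it. The T-lineage markers CD3D, CD3E, CD3G, CD247, CD2, CD5, CD7, TRAC, LCK and ZAP70 were all in the table, at 128 to 4488 normalized counts. None of the 6 myeloid and none of the 5 erythroid markers had a row. Of the B-cell markers 2 of 5 had one (5 to 76 normalized counts), of the epithelial 2 of 6 (34 to 58) and of the fibroblast 1 of 5 (165 to 202).

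Of 2159 genes whose mean was at least 20 and under 50, called the band below, 170 (7.87%) were at least 2-fold higher in oxamate than in control. In oxamate+lactate 118 (5.47%) were. Both held for 83 genes (3.84%), which are the 79 members with CD28, CIRBP-AS1, OGFR-AS1 and ZNF503-AS2. In the other direction 54 genes (2.5%) were at least 2-fold lower in both, 53 of them after the same names were left out. Among 12292 genes whose mean was at least 50, only 0.464% were at least 2-fold higher in both. The share of genes past this fold was thus larger in the band than among better-expressed genes.

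Technical spread at this level was read from 7 ERCC RNAs, synthetic transcripts added to the extracted RNA, whose mean lay in the same band. Their log2 ratios ran from -0.60 to 0.23 (SD 0.31) for oxamate against control. They ran from -1.21 to 0.18 (SD 0.48) for oxamate+lactate against control, and 1 of the 7 was thus more than 2-fold lower. None was 2-fold higher. The spread between cultures was not measured.

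**Figure D1:**
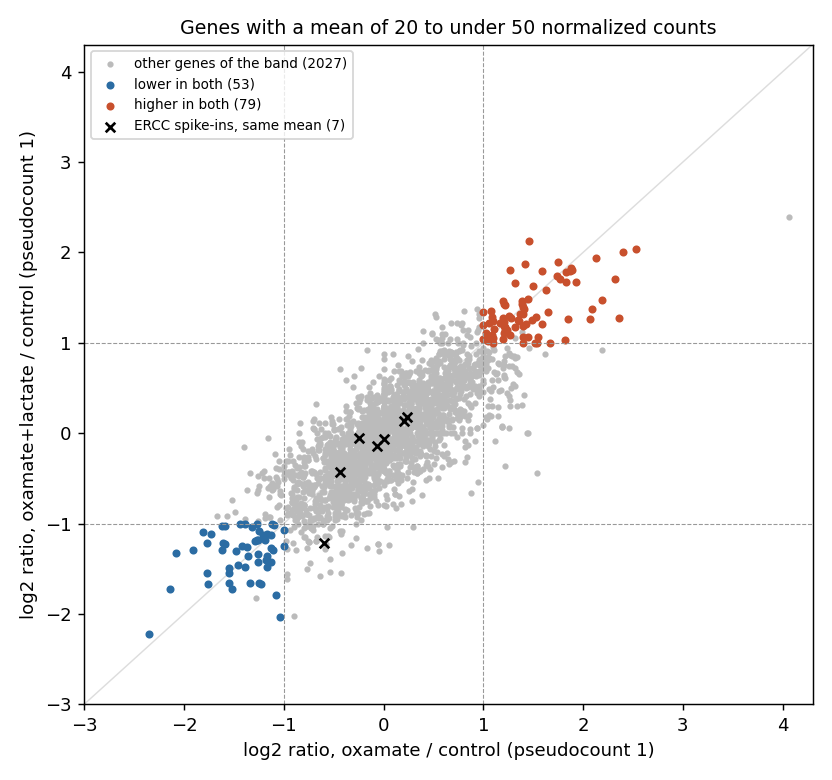
Each point is 1 gene with a mean of at least 20 and under 50, with the log2 ratio to control in oxamate on the x axis and in oxamate+lactate on the y axis; dashed lines mark 2-fold and crosses are ERCC RNAs. The 79 genes higher in both fill the upper right corner, set by the rule, and the lone grey point beyond them is CD28, which the rule leaves out.

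The members had few counts in control and moderate ones after treatment. Their control values ran from 6 to 28 (median 13), and 65 of the 79 had at most 16. In oxamate they ran from 21 to 80 (median 37) and in oxamate+lactate from 21 to 63 (median 34). In absolute terms the differences were small, from 13 to 58 normalized counts between oxamate and control and from 11 to 42 between oxamate+lactate and control. The median log2 ratio was 1.40 (up to 2.53) for oxamate and 1.27 (up to 2.13) for oxamate+lactate, against 0.03 and -0.04 over the band. At least 3-fold higher in both were 15 members, and 2 of these, MURC and RP11-4M23.2, at least 4-fold.

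Members close to the limits had much the same values as genes that missed them. Just inside the fold lay CTB-33G10.6, with 15 normalized counts in control, 31 with oxamate alone and 32 with oxamate and lactate. CTD-2619J13.19 (13, 36 and 27), RP11-87C12.5 (14, 31 and 29) and RP11-50C13.1 (27, 55 and 63) lay there too. RP11-830F9.7, RP11-685M7.3, TSSK2 and ZBTB7C tied with them, with the smaller of both ratios exactly at 2-fold. Just outside lay CRYGS, a lens crystallin gene, with 18, 36 and 42, followed by RP11-110G21.1 (16, 32 and 40), DCDC2B (15, 30 and 39) and NUTM2B (14, 28 and 32). At the upper limit of the mean, GPC5 was inside with a mean of 49.3 and KRT1, a keratin gene, outside with 50.3. At the lower limit GBGT1 was inside with a mean of 20 and SEMA6A, a semaphorin gene, outside with 19.7.

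Of the members, 50 have a gene symbol and 29 carry a clone name such as RP11-4M23.2, given to transcripts by the genomic clone they were found on. The share of clone names was 36.7% among the members and 37.2% in the band. All 50 symbols were matched to GENCODE 29, where 45 are protein-coding, 3 are transcribed pseudogenes, 1 is a small nucleolar RNA and 1 is a processed transcript. The proteins have many different roles, which were assigned after the values were seen.

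**Figure D2:**
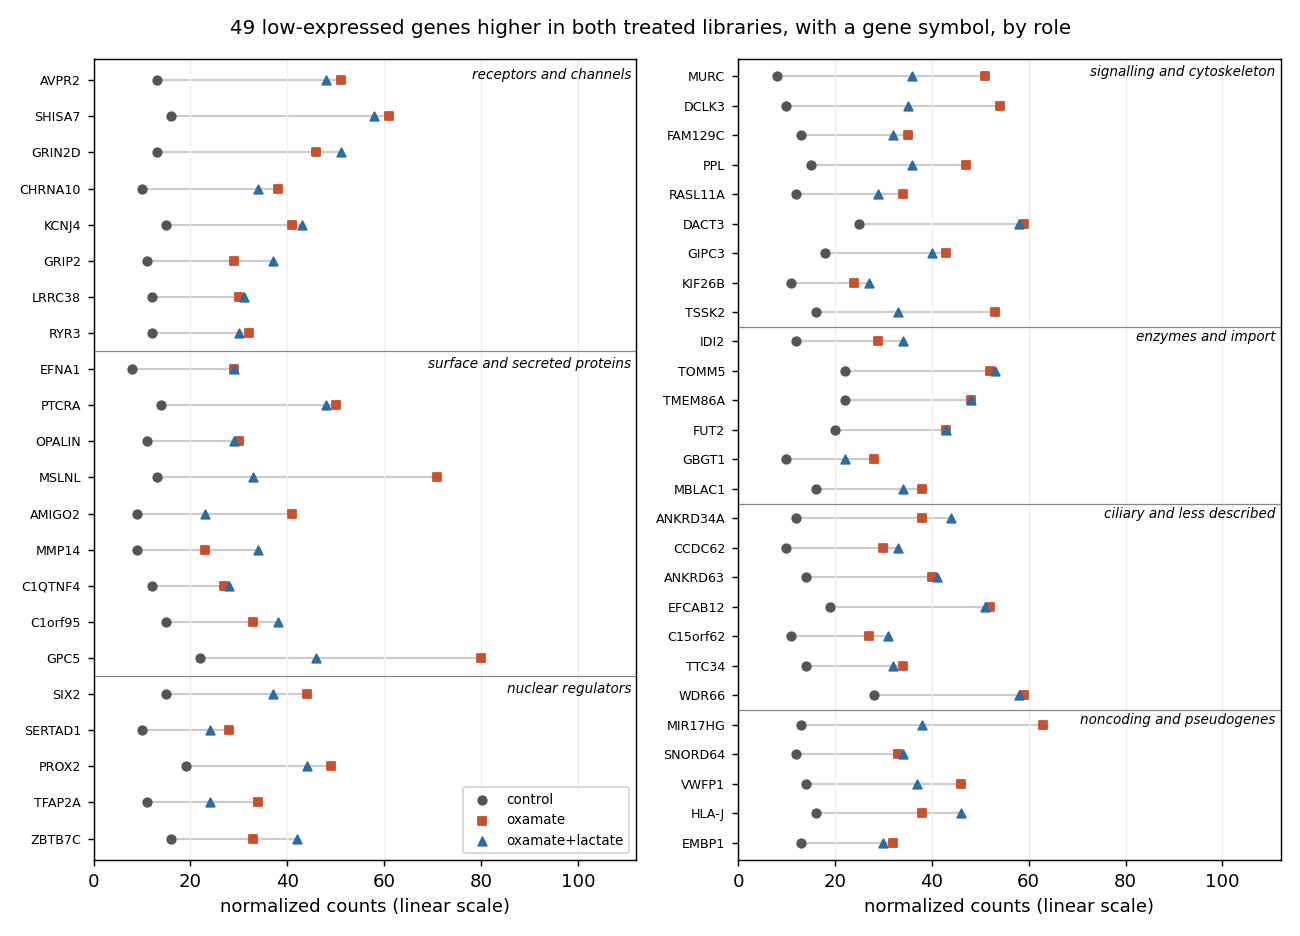
Normalized counts (x axis, linear) of 49 of the 50 members with a gene symbol in control (circles), oxamate (squares) and oxamate+lactate (triangles), 1 library each, grouped by role. In each row the control value is the lowest, as the rule demands, and the gap between both treated values is widest for MSLNL, GPC5 and MIR17HG.

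Receptors, channels and their partner proteins made up 8 members. AVPR2, the vasopressin V2 receptor that controls water retention in the kidney, had 13 normalized counts in control, 51 with oxamate alone and 48 with oxamate and lactate (log2 ratios to control 1.89 and 1.81). SHISA7, an auxiliary protein of neurotransmitter receptors, had 16, 61 and 58 (1.87 and 1.8). GRIN2D, a subunit of NMDA-type glutamate receptors, had 13, 46 and 51 (1.75 and 1.89). In these genes both treated libraries lay close together and well above control.

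CHRNA10, a nicotinic acetylcholine receptor subunit of hair cells, had 10 normalized counts in control, 38 with oxamate alone and 34 with oxamate and lactate. KCNJ4, an inwardly rectifying potassium channel, had 15, 41 and 43. GRIP2, a scaffold of glutamate receptors, had 11, 29 and 37. RYR3, a calcium release channel of the endoplasmic reticulum, and LRRC38, an auxiliary subunit of large-conductance potassium channels, both had 12 in control and between 30 and 32 in the treated libraries. In all 8 the treated libraries differed from each other by less than 1.5-fold, with oxamate+lactate lower in 4 and higher in 4 as deposited, and lower in 1 and higher in 7 with columns scaled to equal sums.

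Surface and secreted proteins made up 10 members. PTCRA encodes the pre-T-cell receptor alpha chain, which pairs with the rearranged beta chain in immature thymocytes and is the member most tied to the T lineage. It had 14 normalized counts in control, 50 with oxamate alone and 48 with oxamate and lactate (log2 ratios to control 1.77 and 1.71). EFNA1, a membrane-anchored ligand of Eph receptors, had 8, 29 and 29 (1.74 in both). Neither gene showed a difference of more than 2 units between the treated libraries.

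Other surface genes parted between the treatments. MSLNL, a gene similar to mesothelin, had 13 normalized counts in control, 71 with oxamate alone and 33 with oxamate and lactate. GPC5, a heparan sulfate proteoglycan of the glypican family, had 22, 80 and 46. AMIGO2, an adhesion molecule with leucine-rich repeats, had 9, 41 and 23. In these 3 genes the value with lactate lay between control and oxamate alone. MMP14, a membrane-bound matrix metalloproteinase, went the other way, with 9, 23 and 34.

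OPALIN, a membrane protein of oligodendrocytes, had 11 normalized counts in control, 30 with oxamate alone and 29 with oxamate and lactate. C1QTNF4, a secreted protein with C1q domains, had 12, 27 and 28, and C1orf95, now named STUM, had 15, 33 and 38. These 3 genes had nearly level values in the treated libraries.

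Nuclear regulators were 5 members. SIX2, a homeobox factor of kidney progenitors, had 15 normalized counts in control, 44 with oxamate alone and 37 with oxamate and lactate. TFAP2A, a factor of neural crest and epithelium, had 11, 34 and 24. PROX2, a homeobox gene related to PROX1, had 19, 49 and 44. SERTAD1, a regulator of cyclin-dependent kinase and E2F activity, had 10, 28 and 24. These 4 were lower in oxamate+lactate than in oxamate, each by less than 1.5-fold. ZBTB7C, a zinc finger gene, was higher with lactate, with 16, 33 and 42.

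Among 9 genes of signalling and cytoskeleton, MURC had the largest ratio of all members in oxamate and, of the smaller of both ratios, also the largest. It is now named CAVIN4 and encodes a muscle protein of caveolae, and it had 8 normalized counts in control, 51 with oxamate alone and 36 with oxamate and lactate (log2 ratios to control 2.53 and 2.04). DCLK3, a kinase of the doublecortin-like family, had 10, 54 and 35 (2.32 and 1.71). PPL, the desmosomal linker periplakin, had 15, 47 and 36. TSSK2, a kinase of the testis, had 16, 53 and 33. All 4 were lower with lactate than with oxamate alone and above control in both.

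RASL11A, a small GTPase, had 12 normalized counts in control, 34 with oxamate alone and 29 with oxamate and lactate. DACT3, an inhibitor of Wnt signalling, had 25, 59 and 58. The remaining members of this group were GIPC3, a PDZ-domain protein of hearing, FAM129C, now NIBAN3, and KIF26B, of the kinesin family. KIF26B, with 11, 24 and 27, was the 1 gene of the 9 that was higher with lactate as deposited, and with equal sums 3 of the 9 were.

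Enzymes and a mitochondrial import subunit made up 6 members, with a median log2 ratio of 1.2 for oxamate and 1.08 for oxamate+lactate. FUT2, the fucosyltransferase that sets secretor status, had 20 normalized counts in control and 43 in both treated libraries. TMEM86A, a lysoplasmalogenase, had 22, then 48 in both. TOMM5, a small subunit of the mitochondrial outer membrane translocase, had 22, 52 and 53. These 3 had the same value, or 1 unit apart, in both treated libraries.

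IDI2, an isoform of the isomerase that makes dimethylallyl diphosphate for isoprenoid synthesis, had 12 normalized counts in control, 29 with oxamate alone and 34 with oxamate and lactate. GBGT1, a glycosyltransferase of the ABO gene family, had 10, 28 and 22. MBLAC1, a nuclease of the metallo-beta-lactamase fold, had 16, 38 and 34. The differences between their treated libraries were in both directions and under 1.5-fold.

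The 7 genes of cilia or of little described function lay close together in both treatments. WDR66, now CFAP251, a protein of motile cilia, had 28 normalized counts in control, 59 with oxamate alone and 58 with oxamate and lactate. ANKRD34A, an ankyrin repeat gene, had 12, 38 and 44, and CCDC62, a coiled-coil gene, had 10, 30 and 33. Over ANKRD63, EFCAB12, TTC34 and C15orf62 the control values were 11 to 19 and the treated ones 27 to 52. None of the 7 differed by 1.5-fold between the treatments.

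MIR17HG, the primary transcript of the miR-17-92 cluster, had 13 normalized counts in control, 63 with oxamate alone and 38 with oxamate and lactate (log2 ratios to control 2.19 and 1.48). It was among the members that were at least 1.5-fold lower with lactate (-0.71). The cluster is an oncogenic microRNA locus and a known target of MYC. The libraries measured the polyadenylated host transcript, so nothing here gives the level of the mature microRNAs. They are shown because they are the known products of this member. The sequences are from RefSeq (GRCh38.p14, plus strand of chromosome 13), and the capitals mark the seed, bases 2 to 8, by which a microRNA pairs with its targets.
hsa-miR-17-5p: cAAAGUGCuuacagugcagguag
hsa-miR-20a-5p: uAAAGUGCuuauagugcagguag
hsa-miR-18a-5p: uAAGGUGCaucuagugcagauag
hsa-miR-19a-3p: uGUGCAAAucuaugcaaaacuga
hsa-miR-19b-3p: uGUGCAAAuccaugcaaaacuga
hsa-miR-92a-3p: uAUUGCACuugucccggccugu
They lie in this order of position, miR-17 at chr13:91350618-91350640, miR-18a at chr13:91350756-91350778, miR-19a at chr13:91350939-91350961, miR-20a at chr13:91351072-91351094, miR-19b-1 at chr13:91351245-91351267 and miR-92a-1 at chr13:91351361-91351382. miR-17-5p and miR-20a-5p share the seed AAAGUGC, and miR-19a-3p and miR-19b-3p share GUGCAAA.

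GPC5 is the next coding gene to MIR17HG on chromosome 13, with no coding gene between them in RefSeq. Among the members with a symbol that were placed on the genome, they were the 1 pair with at most 10 coding genes between them, and clone-named members were not placed. Such pairs were not counted among other genes of the band, so this pair has no background to be set against. Both genes had their highest value in oxamate and an intermediate one in oxamate+lactate, at 80 and 46 for GPC5 and 63 and 38 for MIR17HG. These values enter the rule, and a link between the genes was not tested.

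The other noncoding members with a symbol had smaller ratios. SNORD64, a small nucleolar RNA of the imprinted SNORD cluster on chromosome 15, had 12 normalized counts in control, 33 with oxamate alone and 34 with oxamate and lactate. Small nucleolar RNAs carry no poly(A) tail, and SNORD64 lies within SNHG14. SNHG14 had 903, 921 and 891 and thus differed little. HLA-J, a class I pseudogene, had 16, 38 and 46, VWFP1, a copy of part of the von Willebrand factor gene, had 14, 46 and 37, and EMBP1, a copy of embigin, had 13, 32 and 30. Reads of these 3 cannot be told apart with certainty from those of near-identical copies.

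Among the 29 members with a clone name, control values ran from 6 to 27, oxamate values from 21 to 56 and oxamate+lactate values from 21 to 63. Their median log2 ratios were 1.40 and 1.26, against 1.40 and 1.29 for the members with a symbol. RP11-4M23.2 had 6 normalized counts in control, 36 with oxamate alone and 27 with oxamate and lactate, and CTB-119C2.1 had 12, 56 and 49. RP11-358L4.1 had 8, 32 and 31, and RP11-649A18.4 had 8, 31 and 30. One other clone-named transcript had 10, 41 and 34. These 5 had the largest ratios of the clone-named members by the smaller of both. AP006621.1 and AP006621.9 carry the name of the same clone, and had 17, 37 and 45, and 9, 30 and 29. Clone names were reassigned between annotation releases, so these genes were not placed on the genome here.

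**Figure D3:**
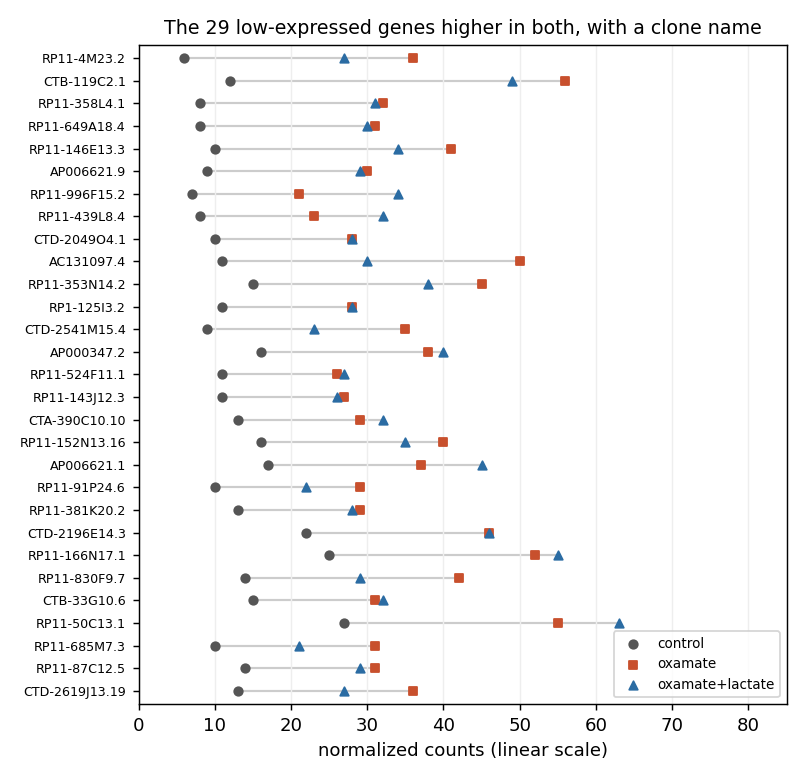
Normalized counts (x axis, linear) of the 29 members with a clone name in control (circles), oxamate (squares) and oxamate+lactate (triangles), 1 library each, ordered by the smaller of both log2 ratios. Control values are at most 27, and RP11-996F15.2 and RP11-439L8.4 are the rows near the top with a clearly higher value in oxamate+lactate than in oxamate.

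Most members had similar values with and without lactate on top of oxamate. Of the 79, 70 (88.6%) differed by less than 1.5-fold between the treated libraries, beside 86.6% of the band, so this share is near the background. A difference of at most 3 units, as deposited, was found for 38 of the 79 members and 731 of the 2159 genes of the band, and was not tested. As deposited, 47 were lower in oxamate+lactate than in oxamate, 26 higher and 6 equal, but with columns scaled to equal sums only 29 were lower. In the band 54.8% of genes were lower as deposited, and 45.0% with equal sums. The median log2 ratio of oxamate+lactate against oxamate was -0.05 for the members and -0.06 for the band, and with equal sums the members' median turned to 0.06.

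At least 1.5-fold lower with lactate were 8 members (10.1%), beside 9.17% of the band. They were MSLNL (-1.08), AMIGO2 (-0.81), GPC5 (-0.79), AC131097.4 (-0.72), MIR17HG (-0.71), TSSK2 (-0.67), DCLK3 (-0.61) and CTD-2541M15.4 (-0.58), in log2 ratios of oxamate+lactate against oxamate. AC131097.4 had 11 normalized counts in control, 50 with oxamate alone and 30 with oxamate and lactate. CTD-2541M15.4, with 9, 35 and 23, lay exactly at 1.5-fold. At least 1.5-fold higher was 1 member (1.27%), beside 4.21% of the band. This was RP11-996F15.2, with 7, 21 and 34 (log2 ratio of oxamate+lactate against oxamate 0.67). The next highest were MMP14 (0.54), RP11-439L8.4 (0.46, with 8, 23 and 32), GRIP2 (0.34), ZBTB7C (0.34) and AP006621.1 (0.28). The lower share is near the background. All these values enter the rule, which keeps out a gene that lactate brought back to under 2-fold over control.

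Log2 ratios of oxamate+lactate against oxamate within 0.1 of 0, as deposited, were found for 41.8% of the members and 21.9% of the band. The share was 30.2% among genes of the band lower in both and 39.2% among genes with a mean of at least 50. It was not counted under the other scalings. The rule demands high values in both treated libraries, and no test was made of this difference.

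**Figure D4:**
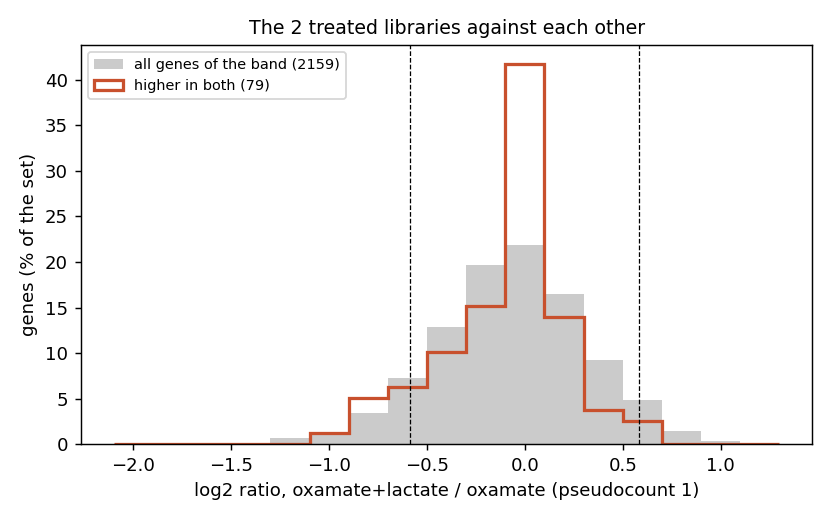
Distribution of the log2 ratio of oxamate+lactate against oxamate (x axis) as the share of genes (y axis, %) in the 79 members (line) and in all 2159 genes of the band (grey); dashed lines mark 1.5-fold. Within the dashed lines lie 70 of the 79 members (88.6%), beside 86.6% of the band.

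The 14 gene lists of roles and lineages held 96 genes of the band, of which 5 were members (5.21%), beside 3.66% of the band. Homeobox and developmental factors had 18 genes in the band and 1 member, SIX2, and neuronal and synaptic genes 12 and 1, GRIN2D. G-protein-coupled receptors had 9 and 1, AVPR2. Ion channels had 8 and 1, KCNJ4, and matrix genes 8 and 1, MMP14. The other 9 lists had no member, among them immediate early genes, with 11 genes in the band, and cytokine receptors, with 7. Of the 50 members with a symbol, 45 were in no list. The lists held only 96 of the 1356 genes of the band with a symbol, so these counts say little about the members' roles.

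Some members lie within or across better-expressed genes. The libraries keep no strand information, so reads from a stretch shared by genes on opposite strands look alike. ANKRD63, CHRNA10, SNORD64 and WDR66 lie on the same strand as the gene they overlap, where strand information would not part such reads either. Of the 50 members with a symbol, 11 (22%) overlapped another gene of the table, beside 36.6% of the band's symbols. For 9 of them the other gene had a mean of at least 50. GRIP2 overlaps SLC6A6, the taurine transporter, which had 601 normalized counts in control, 1597 with oxamate alone and 1154 with oxamate and lactate. SLC6A6 was the only one of these 10 neighbours that was 2-fold higher in oxamate than in control. TSSK2 overlaps DGCR14, with 188, 305 and 294. CHRNA10 overlaps NUP98, a nucleoporin gene, with 2431, 3211 and 2698. The part of such neighbours in the members' counts was not tested.

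The members with a symbol were richer in G and C than the band. The GC content of the longest transcript had a median of 56.3% (quartiles 48.7% to 60.1%) over the 50 members, 50.6% (43.7% to 58.1%) over 1333 genes of the band and 47.0% (40.2% to 58.4%) over 38 genes lower in both. The quartiles overlap. Transcript lengths had medians of 3098, 2825 and 3390 bases. Protein-coding genes made up 90%, 76.8% and 94.7%. Clone-named genes had no value, so over all 79 members, of which 63.3% were matched, such a comparison is void. These shares are a description of the sets, and the part of GC content in the ratios was not tested.

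Promoter sequences, from 250 bases before to 50 after the gene's start, were in the RefSeq table for 35 of the 50 members and 873 genes of the band. The letters GGGCGG, a GC box that SP and KLF factors bind, were found on either strand in 65.7% of the members' windows, 59.7% of the band's and 44.6% of all 27305 windows of the table. The AP-1 element reads TGA(C/G)TCA, and the search used the wider letters TGANTCA, with any base at N. These wider AP-1 letters were found in 5 of 35 windows (14.3%), beside 5.96% of the band and 7.76% of all windows. The TATA box letters TATAAA were found in 5 as well (14.3%), in GPC5 on the strand opposite to the gene, beside 7.79% and 11.95%. Over 30 windows of genes lower in both, the shares were 63.3% for the GC box, 3.33% for AP-1 and 13.3% for TATA. The GC box and TATA shares of the members were thus close to those of the lowered genes. With 35 windows, 1 gene is about 3 percentage points, so these shares are coarse.

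The other motifs gave the following counts. The RBPJ letters GTGGGAA, of Notch signalling, were in 3 windows (8.57%, band 5.38%, all 6.28%), those of C15orf62, EFNA1 and SHISA7. The E-box letters CACGTG were in 3 (8.57%, 8.36% and 7.43%). The EGR letters GCGNGGGCG were in 2 (5.71%, 14.3% and 9.28%), those of CCDC62 and EFNA1. The cAMP response letters TGACGTCA (2.86%, 2.29% and 1.98%) and the heat shock letters GAANNTTC (2.86%, 5.61% and 6.87%) were in 1 each. The ATF4 letters TGATGNAA were in none, beside 1.60% and 3.67%. All were searched on both strands, and GGGCGG can overlap GCGNGGGCG. PTCRA, CHRNA10, OPALIN and ZBTB7C held none of the 9 motifs in these windows. Over 30 windows of genes lower in both, the shares were 0% for RBPJ, 6.67% for the E-box and 26.7% for EGR. They were 0% for the cAMP response, 13.3% for heat shock and 0% for ATF4.

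**Figure D5:**
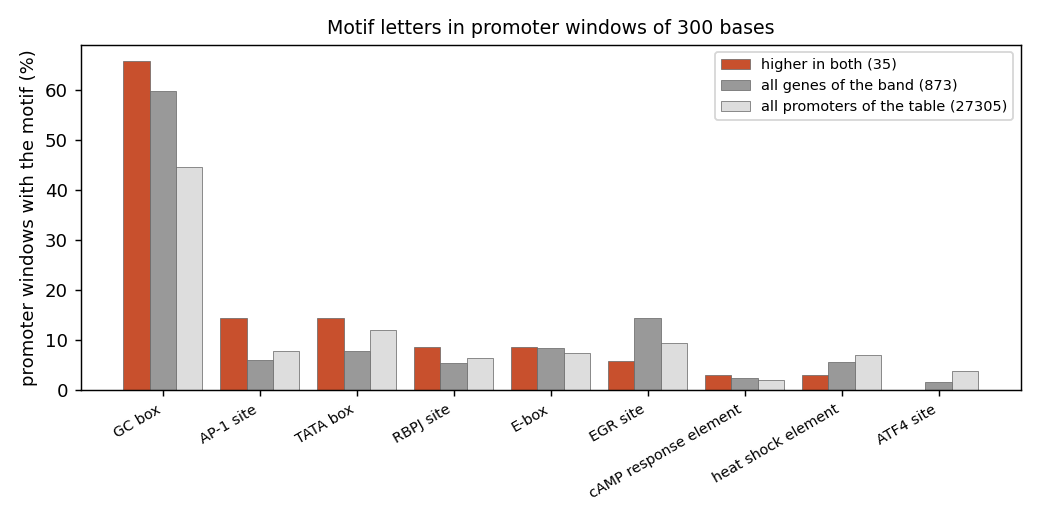
Share of promoter windows of 300 bases (y axis, %) that hold each motif's letters on either strand, for the 35 members, 873 genes of the band and all 27305 windows of the RefSeq table. The AP-1 and TATA letters stand at 14.3% in the members, from 5 windows each.

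The AP-1 windows are shown because this motif had the largest ratio of the members' share to the band's among the 9. The largest of 9 coarse ratios can look raised by this choice alone, and no test was made of it. Each line gives the motif in capitals with 11 bases on either side, 5′ to 3′ on the gene's strand, from RefSeq (GRCh38.p14). AVPR2 has 2 matches. The base at N is C or G, as in the AP-1 element, in AMIGO2, C15orf62 and the first match of AVPR2. It is A or T in KCNJ4, PROX2 and the second match of AVPR2, which thus match only the wider letters. The narrower element was not counted over the band.
AVPR2: aggggcttgagTGACTCAtgtgggcctag
AVPR2: tgggcctagcgTGAATCAgcacagtctgc
AMIGO2: gttgggcatctTGACTCAaggaccagagt
KCNJ4: caggcagccttTGAATCAagacctgaatg
C15orf62: tcccacctgacTGAGTCAgctgagaacaa
PROX2: gagaagctgggTGATTCAgtccccaagtt
They lie at chrX:153902462-153902490 and chrX:153902482-153902510 (plus strand), chr12:47080165-47080193 (minus), chr22:38444062-38444090 (minus), chr15:40769927-40769955 (plus) and chr14:74876346-74876374 (minus). The first motif base is 152 and 132 bases before the start in AVPR2, 231 in AMIGO2, 51 in KCNJ4, 42 in C15orf62 and 218 in PROX2. These 5 genes had control values of 9 to 19 and oxamate values of 27 to 51. A match is a stretch of letters and not a measured binding site.

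The TATA letters of 2 members stand where a TATA box usually sits, about 30 bases before the start. They are shown with those of MURC, the member with the largest ratio in oxamate.
IDI2: catccccagggTATAAAagggccctggt
TFAP2A: attgccgcggcTATAAAtccatcacttc
MURC: gtatttgtagtTATAAAtacttgaccgt
They lie at chr10:1025874-1025901 (minus strand), chr6:10419673-10419700 (minus) and chr9:100577995-100578022 (plus), 31, 30 and 73 bases before the start. SHISA7 holds the letters farther away, 229 bases before the start. GPC5 holds them 242 bases before its start, on the strand opposite to the gene.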

How the data were processed

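Per the labels' protocols, ERCC RNAs were mixed into total RNA from equal cell numbers, and poly(A) libraries were built with an unstranded kit. The submitters' processing notes list FastQC 0.11.9, STAR 2.7.1a, HTSeq 0.11.2 and hg19 without saying what each did. The authors deposited 1 table of normalized counts, 17365 rows by 3 libraries, all whole numbers, treated here as a score that the authors made from counts and rounded. How they were normalized, and which genes were filtered out, was not given in the sources used here. Ratios are log2((value + 1)/(value + 1)), which understates the change of low genes, and no count model was fitted. The members, lists and roles were chosen with earlier results of these data known. Every member could be named, with values per library for members of the lists, the 12 with the largest smaller-of-both ratio, and the 6 highest and 6 lowest in oxamate+lactate against oxamate. Values of further members were added after they were seen. Gene types, overlaps and GC content came from GENCODE 29, on another build than the files, and promoters and microRNAs from RefSeq GRCh38.p14. Older symbols were matched through RefSeq synonyms. Counting was tested on simulated data. Tools were numpy 2.4.6, pandas 2.3.3 and matplotlib 3.10.9. Other pseudocounts, scalings and limits of the mean were tried. The values of 1 member are not reported here, and it is counted in all totals.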

Additional observations from a re-analysis of the deposited data

How the results depend on the processing

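All 79 members stayed above control in both treated libraries under the 3 other scalings, with a smallest log2 ratio of 0.90. The rule had set both log2 ratios to at least 1, and these scalings shifted them little. This outcome was thus set by the rule and is no check of the members. Scaling to equal sums moved the median log2 ratio of oxamate+lactate against oxamate over the 12292 better-expressed genes from -0.09 to 0.02. The number of members, and that of all names past the fold, was 48 and 50 with a pseudocount of 5, and 21 and 22 with one of 10, which shrinks the ratios of low genes by construction. It was 209 and 220 with a mean of at least 10, 36 and 38 with at least 30, and 368 and 382 with no lower limit, as more or fewer genes enter. It was between 68 and 83 members under the other scalings and 79 with a pseudocount of 0.5. Of the 79 members described here, 66 still met the rule with equal sums, 70 with centred ratios and all 79 with equal ERCC sums. Members lower in oxamate+lactate than in oxamate were 29 with equal sums in place of 47. The 1 member with a 2-fold difference between treatments, MSLNL, was 0 with equal sums, with centred ratios and with a pseudocount of 10. Members at least 1.5-fold lower with lactate were 5 in place of 8 with a pseudocount of 10, with equal sums and with centred ratios. No paired analysis was possible because each condition has 1 library. The unknown depth limits what can be said of values this low.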
